A study of Mus musculus with 12 samples.

Results

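High-fat and low-fat feeding were compared in the livers of mice that received no maple syrup extract. The comparison was defined by the sample titles, as the 3 arrays of the high-fat control group against the 3 arrays of the low-fat control group, and it used 6 of the 12 arrays of the study. All mice were male C57BL6 mice that ate their diet freely for 12 weeks, from 6 to 18 weeks of age. The low-fat diet drew 10% of its energy from fat and the high-fat diet 45%. The labels name no other ingredient of either diet, no body weight and no liver fat measurement. The other 6 arrays, 3 on each diet, came from mice whose food held maple syrup extract (labelled MSX) at 0.5% by weight. They entered the estimate of the spread between arrays and are set beside the control comparison where stated. RNA was extracted from liver with Trizol and hybridised to Affymetrix arrays, 1 array per sample. The arrays of a group are labelled as biological replicates.

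A diet rich in fat is a common way to bring mice to obesity and fat storage in the liver. The liver makes cholesterol from acetyl groups, first through mevalonate to squalene and then through lanosterol to cholesterol. The enzymes of this route are switched on together by the transcription factor SREBP2, which is held in the endoplasmic reticulum by Scap and Insig proteins while sterol is plentiful there. The liver also senses growth hormone and insulin, which set the levels of many sex-biased genes and of secreted proteins that bind insulin-like growth factors.

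Values are log2 expression values, on which a difference of 1 is a 2-fold change, and every difference is high-fat minus low-fat. Of 22180 genes measured by a probe set with 1 gene symbol, 4 passed an adjusted p of 0.05 (limma, Benjamini-Hochberg over all genes), or 0.018% of those tested. Cyp51, Sqle and Themis rose on the high-fat diet (0.0135% of genes were called higher), and Igfbp2 fell (0.00451% were called lower). A total of 1503 genes (6.78%) had an unadjusted p under 0.05, where 1109 would be expected with no difference in any gene. Of these, 762 (3.44%) were higher and 741 (3.34%) lower on the high-fat diet. The groups did not overlap, meaning that every high-fat array lay on the same side of every low-fat array, for 2525 genes (11.4%), of which 1173 (5.29%) were higher and 1352 (6.1%) lower. With 3 arrays per group and no difference in any gene, a share of 0.1 would be expected not to overlap, split evenly between both directions. The median difference over all genes was −0.00479, and 48.8% of genes had a difference above 0. Differences ran from −0.32 at the 5th percentile to 0.33 at the 95th. A difference over 1 was seen in 46 genes upward (0.207%) and 10 downward (0.0451%). Groups of genes are described below by such counts and by their medians, to be read against these shares. Genes without an adjusted p under 0.05 are given by their values only.

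**Figure D1:**
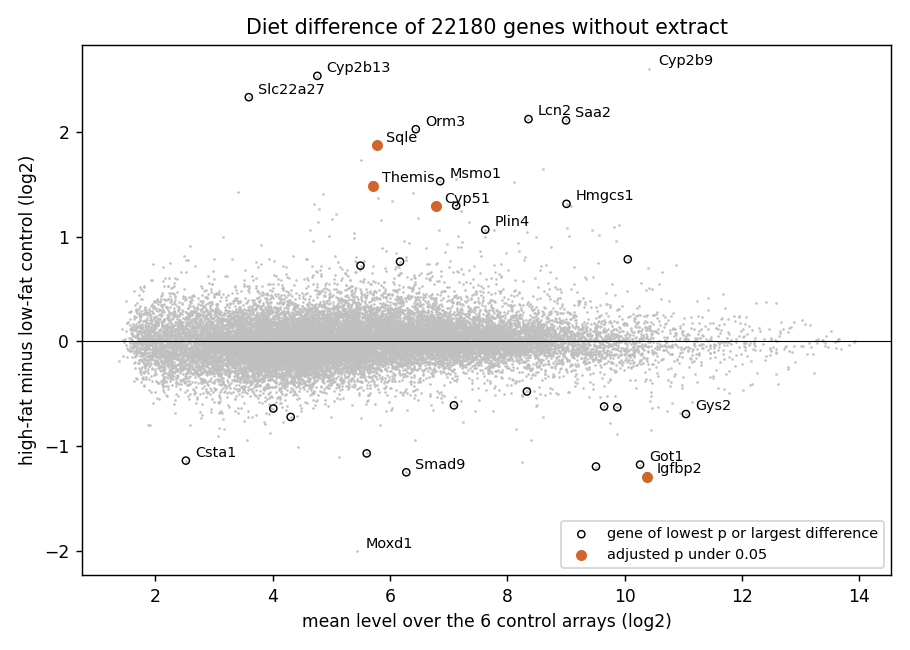
The log2 difference between high-fat and low-fat control arrays (vertical axis) is plotted against the mean log2 level over the 6 control arrays (horizontal axis) for 22180 genes. Filled points are the 4 genes with an adjusted p under 0.05, open circles are genes of lowest p or largest difference among those whose groups do not overlap, and named grey points are Cyp2b9 and Moxd1, the genes of largest difference in each direction.

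The arrays were alike in overall level. Array medians of the deposited values lay between 4.68 and 4.75 over the 12 arrays, and correlations between any 2 of the 6 control arrays lay between 0.973 and 0.981. The first principal component of the control arrays held 28.4% of their variance, with low-fat arrays between −3.94 and 28.3 and high-fat arrays between −25.9 and −2.81, so that the groups overlapped slightly. High-fat control array 1 stood apart from the other high-fat arrays on the second component (22.8 against −6.69 and −19.8). It was also the highest of the 6 arrays in the mean marker level of stellate cells, cholangiocytes and macrophages, and counts and differences that moved by over 1.5 times without it are given both ways for the genes and lists where it bears on a statement. Counts without it are to be read beside 1337 of all 22180 genes at an unadjusted p under 0.05 in that limma fit, against 1503 with it. Hepatocyte markers, 7 of 9 of which were measured, averaged between 11.9 and 12.1 in all 6 arrays. Albumin, the main secreted protein of hepatocytes, lay between 13.88 (high-fat array 2) and 13.95 (high-fat array 3).

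The called genes of the sterol pathway were Sqle (probe set 17311807) and Cyp51 (17445308). Sqle, the squalene epoxidase, was measured at 4.95, 4.99 and 4.56 in the low-fat arrays and at 6.82, 6.41 and 6.92 in the high-fat arrays. The groups were far apart, with means of 4.84 ± 0.24 and 6.71 ± 0.27 (SD, n = 3 each). Sqle rose 3.67-fold (log2 difference 1.88, SE 0.21, limma adjusted p = 0.00519). Cyp51, the lanosterol demethylase, was measured at 6.15, 6.21 and 6.02 on the low-fat diet and at 7.36, 7.48 and 7.43 on the high-fat diet. Its arrays varied little within a group, at 6.13 ± 0.10 and 7.42 ± 0.06 (SD, n = 3 each). Cyp51 rose 2.45-fold (log2 difference 1.29, SE 0.12, adjusted p = 0.000893), the lowest p of all genes.

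Of the 11 measured genes from squalene to cholesterol, 7 had an unadjusted p under 0.05 and a higher level on the high-fat diet, none a lower one, and in 9 the groups did not overlap with the high-fat arrays above. The median difference of the list was 0.43. Msmo1, the sterol C4-methyl oxidase, lay at 6.27, 6.37 and 5.62 against 7.70, 7.57 and 7.59, a difference of 1.53 (SE 0.23, adjusted p = 0.0519) that narrowly missed the threshold. Nsdhl, which acts on the same C4 methyl groups, lay at 6.79, 6.49 and 7.05 against 8.13, 7.89 and 7.73 (difference 1.14, adjusted p = 0.278). Both genes were higher in every high-fat array than in any low-fat array. Smaller differences were seen in Lss, the lanosterol synthase (0.54), in Dhcr7, which makes cholesterol from 7-dehydrocholesterol (0.43), and in Fdft1, the squalene synthase (0.33). Tm7sf2 and Ebp, enzymes between lanosterol and cholesterol, had overlapping groups and differences of 0.15 and −0.04.

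Upstream, 3 of the 6 measured genes of the mevalonate branch had an unadjusted p under 0.05, all with the high-fat arrays higher, in 4 the groups did not overlap, and the median difference was 0.38. Hmgcs1, the cytosolic HMG-CoA synthase at the head of the route, lay at 8.35, 8.12 and 8.58 against 9.80, 9.46 and 9.74. Fdps, which makes farnesyl diphosphate, lay at 6.32, 6.54 and 6.57 against 7.89, 7.70 and 7.74. The differences were 1.32 for Hmgcs1 (SE 0.20, adjusted p = 0.0761) and 1.30 for Fdps (SE 0.23, adjusted p = 0.103). Mvk, the mevalonate kinase, differed by 0.44. Ggps1, which turns farnesyl diphosphate toward protein prenylation and away from sterols, had overlapping groups.

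Among 12 measured genes of sterol sensing and uptake, 3 had an unadjusted p under 0.05 with the high-fat arrays higher, and the median difference was 0.15. Insig1, the SREBP2 target that retains the Scap complex in the endoplasmic reticulum, lay at 9.33, 8.77 and 9.05 against 10.03, 10.29 and 9.89. Its groups did not overlap (difference 1.02, SE 0.20, adjusted p = 0.172). The same held for Srebf2, which encodes SREBP2 itself (difference 0.48), and for the sterol carrier Stard4 (0.48). Scap, Insig2, Npc1 and the proteases Mbtps1 and Mbtps2 had overlapping groups.

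**Figure D2:**
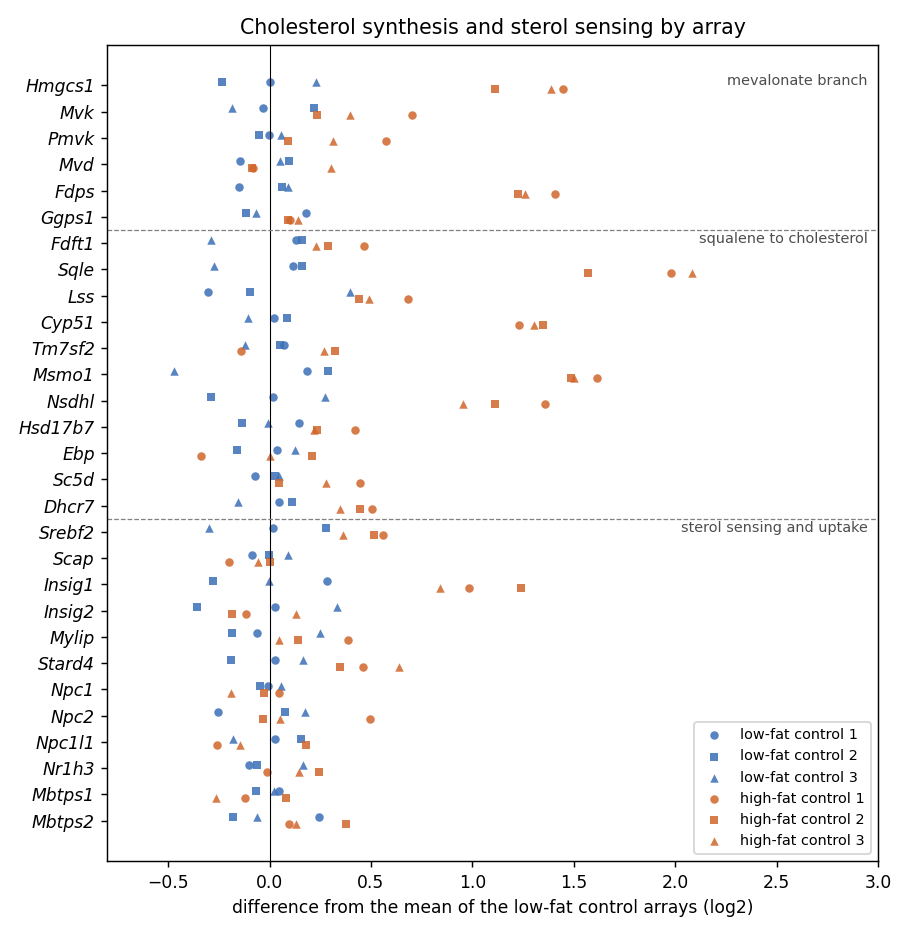
Each point is 1 control array, as its log2 difference from the mean of the 3 low-fat control arrays (horizontal axis), for the measured genes of the mevalonate branch, of the steps from squalene to cholesterol and of sterol sensing. High-fat points of Hmgcs1, Fdps, Sqle, Cyp51, Msmo1, Nsdhl and Insig1 lie clear of the low-fat points, while those of Ebp, Tm7sf2, Scap and Insig2 do not.

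The 250 bases before the start of 4 of these genes are shown because these were, among genes with a promoter in the table, the called gene and the genes of lowest p in the 3 sterol lists. They are RefSeq sequences of the mouse assembly GRCm38.p6, read 5′ to 3′ on the gene's own strand. Capitals mark a CCAAT box, the binding site of the factor NF-Y, which reads ATTGG on the opposite strand. In Hmgcs1 they also mark TCACNCCAC, a form of the sterol regulatory element that SREBP proteins bind. The regions are chr13:119690101-119690350 (+) for Hmgcs1, chr5:4104698-4104947 (−) for Cyp51, chr8:64733579-64733828 (−) for Msmo1 and chr5:28071162-28071411 (+) for Insig1.
Hmgcs1: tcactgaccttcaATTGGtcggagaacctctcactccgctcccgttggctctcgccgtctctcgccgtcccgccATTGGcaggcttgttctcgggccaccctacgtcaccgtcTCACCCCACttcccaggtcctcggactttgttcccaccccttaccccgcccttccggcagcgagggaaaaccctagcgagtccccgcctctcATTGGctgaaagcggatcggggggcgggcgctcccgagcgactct
Cyp51: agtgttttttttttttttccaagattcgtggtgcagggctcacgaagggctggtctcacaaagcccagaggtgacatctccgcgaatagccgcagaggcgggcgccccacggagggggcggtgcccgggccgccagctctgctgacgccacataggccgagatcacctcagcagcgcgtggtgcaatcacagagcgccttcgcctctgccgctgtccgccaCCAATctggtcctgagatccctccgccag
Msmo1: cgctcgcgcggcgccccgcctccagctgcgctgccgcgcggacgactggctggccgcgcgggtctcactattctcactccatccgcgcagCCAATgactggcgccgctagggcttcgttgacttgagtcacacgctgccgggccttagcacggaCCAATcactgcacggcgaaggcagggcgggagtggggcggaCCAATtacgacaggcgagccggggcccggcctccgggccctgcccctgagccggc
Insig1: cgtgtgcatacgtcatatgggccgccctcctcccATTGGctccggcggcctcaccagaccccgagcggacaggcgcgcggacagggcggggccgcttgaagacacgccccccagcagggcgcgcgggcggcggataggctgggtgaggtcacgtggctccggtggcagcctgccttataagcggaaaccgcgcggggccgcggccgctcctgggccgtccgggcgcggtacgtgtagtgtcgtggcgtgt
Both strands were searched, and distances run to the first letter of a match. A CCAAT box was found 237, 176 and 45 bases before the start of Hmgcs1, 29 bases before that of Cyp51, 160, 96 and 55 before that of Msmo1 and 216 before that of Insig1. The element TCACNCCAC was found 137 bases before the start of Hmgcs1. Sterol genes of 1 chromosome were left out of the counts below, while the tested genes beside them include that chromosome. Of the 24 measured sterol genes with a promoter that remained, 20 (83.3%) held a CCAAT box, against 38.7% of 16990 tested genes with a promoter. These 20 were 5 of 5 in the mevalonate branch, 9 of 9 from squalene to cholesterol and 6 of 10 in sterol sensing. The element TCACNCCAC was found in 1 of the 24 (4.17%), against 1.22% of the tested genes. No other form of the element was searched, so a promoter without this match may still hold one. A match shows that these letters are present and not that the site is bound.

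Igfbp2 (probe set 17214106) was the called gene of lower level. It encodes a secreted binding protein of insulin-like growth factors made by hepatocytes. It was measured at 10.91, 11.12 and 11.06 in the low-fat arrays and at 9.74, 9.66 and 9.81 in the high-fat arrays. The means were 11.03 ± 0.11 and 9.74 ± 0.08 (SD, n = 3 each), with no overlap. Igfbp2 fell 2.45-fold (log2 difference −1.29, SE 0.15, adjusted p = 0.00519). Of 19 measured genes of the IGF axis and insulin signalling, 3 had an unadjusted p under 0.05, all lower on the high-fat diet, and the median was −0.08. The other 2 were Igf1, the growth factor itself (10.75, 10.81 and 10.51 against 9.96, 10.37 and 10.28, difference −0.49), and Irs2, an adaptor of the insulin receptor (−0.44).

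Themis (probe set 17232394) rose 2.81-fold (log2 difference 1.49, SE 0.20, adjusted p = 0.0258). Its levels were 4.78, 5.44 and 4.68 on the low-fat diet and 6.60, 6.46 and 6.31 on the high-fat diet. Themis is known as a gene of T cell selection in the mouse thymus. Of 13 measured T and NK cell markers, 1 (Nkg7, difference 0.28) had an unadjusted p under 0.05, and their median difference was 0.11. Without high-fat array 1 the count was 2. The mean level of these markers lay between 4.44 and 4.56 in the low-fat arrays and between 4.50 and 4.64 in the high-fat arrays. The T cell receptor chains Cd3d, Cd3e and Cd3g differed by 0.19, −0.03 and 0.31, with overlapping groups in all 3. Cd3g averaged 4.44 in the low-fat and 4.75 in the high-fat arrays, near the median of 4.72 over all values of the series. No detection call was used, so whether these chains were detected was not tested. Without high-fat array 1 the difference of Cd3g was 0.16. The part of T cells in the Themis difference was not tested. In a piece of liver, fewer cells of a type and less RNA per cell cannot be told apart. The Themis call was lost in the 6 control arrays alone (adjusted p = 0.0768) and whenever low-fat array 1 or 3, or any high-fat control array, was left out (adjusted p between 0.072 and 0.218). It was also lost without high-fat MSX array 3.

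Leaving out low-fat array 3 left Cyp51 as the 1 called gene, with Sqle and Igfbp2 at an adjusted p just above the threshold. Leaving out an extract-fed array of the low-fat group, which enters through the spread, gave 7 called genes for replicate 2 and 7 for replicate 3. Cyp51 was called in all 19 alternatives.

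Genes of fat uptake and storage were higher in part. Plin4, which coats lipid droplets, lay at 7.11, 7.05 and 7.10 against 8.21, 8.47 and 7.80 (difference 1.07, SE 0.17, adjusted p = 0.0826). Its low-fat arrays were nearly equal and all high-fat arrays lay above them. Of 12 measured genes of fatty acid uptake and binding, 5 had an unadjusted p under 0.05 and all 5 were higher, while the list's median was 0.10. They were Pparg, the nuclear receptor of fat storage (difference 0.85), the lipoprotein receptor Vldlr (0.99), the fatty acid transporter Cd36 (0.97), the fatty acid binding protein Fabp4 (0.63) and the lipoprotein lipase Lpl (0.74). Lpl lay at 5.92, 6.36 and 6.95 against 7.96, 6.93 and 6.55. Its groups overlapped, and without high-fat array 1 its difference was 0.33 and the count of the list 4. Cd36 lay at 9.02, 9.68 and 9.42 against 10.40, 10.04 and 10.58. Pparg lay at 6.43, 6.41 and 6.71 against 7.67, 7.18 and 7.26. Neither gene's groups overlapped. Adipocyte markers, 6 of 8 of which were measured, averaged between 4.60 and 4.74 in the low-fat arrays and between 4.75 and 4.78 in the high-fat arrays, with Fabp4 counted among them. At an unadjusted p under 0.05, 1 of the 6 was higher, and 2 were without high-fat array 1. The fat cell hormone Adipoq lay between 2.25 and 2.52 in the 6 arrays, with overlapping groups. The part of fat tissue in these differences was not tested.

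Among 16 measured lipid droplet genes, Plin4 and Fitm1, which helps form droplets (difference 0.55), were the 2 with an unadjusted p under 0.05. A second probe set of Fitm1 differed by −0.27. Plin2, the main droplet coat of hepatocytes, lay at 10.70, 10.32 and 10.97 against 10.89, 10.97 and 10.85 and had overlapping groups. Cidea, which fuses droplets, lay at 7.86 in high-fat array 1 and between 4.33 and 4.58 in the other 5 arrays. Cidec, of the same family, lay at 9.30 in that array and between 7.10 and 7.63 in the others. Without it the differences of Cidea and Cidec were 0.04 and −0.22, against 1.17 and 0.48 with it.

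Fat synthesis genes were mixed. Of 12 measured genes of de novo lipogenesis, 2 were higher at an unadjusted p under 0.05, Fasn and Thrsp, none was lower, and the median was 0.05. Without high-fat array 1, which was the highest in Fasn, 1 was higher and 1 lower, and the differences were 0.53 for Fasn and −0.44 for its regulator Srebf1. Fasn, the fatty acid synthase, lay at 7.92, 7.66 and 8.10 against 9.19, 8.42 and 8.42 (difference 0.78, SE 0.21, adjusted p = 0.422). With all arrays Srebf1 had overlapping groups (difference −0.15), as had Acaca (0.05), the carboxylase before Fasn, and Scd1 (0.13), the main desaturase. Among 8 elongases and desaturases, Elovl1 was higher (0.48), and Elovl2 (−0.44) and Fads2 (−0.41), which lengthen and desaturate polyunsaturated fatty acids, were lower at an unadjusted p under 0.05, with a list median of −0.21. In glycerolipid synthesis, 3 of 13 genes were higher, among them the acyltransferases Gpam (0.48) and Gpat3 (0.43), 1 was lower (Gpat4, −0.39), and the median was −0.00374. A second probe set of Gpat3 differed by −0.03.

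Fatty acid oxidation genes lay near the median of all genes. Of 26 measured targets of PPAR alpha and oxidation genes, 3 had an unadjusted p under 0.05, all lower, and the median was −0.04. Acot1, a cytosolic acyl-CoA thioesterase, lay between 8.83 and 9.06 in the low-fat arrays and at 7.92, 8.25 and 8.58 in the high-fat arrays, with no overlap (difference −0.72). Cpt1a, which admits long-chain fatty acids to the mitochondrion, differed by −0.27. Ppara itself differed by 0.03. In lipoprotein assembly and clearance, 1 of 16 genes was lower, Apoa5 (−0.63), and the median was −0.05. None of 22 respiratory chain genes reached an unadjusted p of 0.05.

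Of 11 genes of bile acid synthesis, none reached an unadjusted p of 0.05. Cyp7a1, the rate-limiting enzyme, spread from 9.22 to 11.49 within the low-fat group and from 9.52 to 10.96 within the high-fat group. Among 15 genes of bile acid and sterol transport, Abcg5 (−0.44) and Abcg8 (−0.29), the paired exporter of cholesterol into bile, were lower and Abcc4 (0.50) higher at an unadjusted p under 0.05. For both exporter genes all high-fat arrays lay below all low-fat arrays. Without high-fat array 1 the difference of Abcg8 was −0.18, and 1 gene of the list was lower at an unadjusted p under 0.05.

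In the lists of glucose output and of amino acid breakdown, the genes with an unadjusted p under 0.05 were all lower, and 4 of 13 and 4 of 23 genes had a difference above 0. Gys2, the liver glycogen synthase, lay at 11.52, 11.45 and 11.20 against 10.67, 10.65 and 10.77 (difference −0.69, SE 0.12, adjusted p = 0.102). Of 13 measured genes of glucose output and glycogen, 3 had an unadjusted p under 0.05, all lower, with a median of −0.13. The other 2 were G6pc, the glucose-6-phosphatase (−0.69), and Pck1, which starts gluconeogenesis (−0.31), both with overlapping groups. Got1, the cytosolic aspartate aminotransferase, lay at 10.90, 11.10 and 10.55 against 9.76, 9.79 and 9.46 (difference −1.18, SE 0.20, adjusted p = 0.103). Of 23 measured genes of amino acid catabolism and the urea cycle, 6 had an unadjusted p under 0.05, all lower, in 8 the high-fat arrays lay below the low-fat arrays, and the median was −0.16. They included Agxt, which clears glyoxylate (−0.63), Cps1, the first enzyme of the urea cycle (−0.41), and Hgd of tyrosine breakdown (−0.34). None of 7 genes of glucose use reached an unadjusted p of 0.05.

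Cyp2b13 and Slc22a27 had the largest differences among named genes whose groups did not overlap and whose unadjusted p was under 0.05. Cyp2b13, a cytochrome more abundant in female mouse liver, lay at 3.61, 3.68 and 3.17 against 6.68, 4.85 and 6.56. All high-fat arrays lay above the low-fat arrays, with array 2 the lowest of them (difference 2.54, SE 0.42, adjusted p = 0.0826). Slc22a27, an organic anion transporter gene, had the same order of high-fat arrays, at 2.26, 2.26 and 2.75 against 5.57, 3.77 and 4.95 (difference 2.34, SE 0.39, adjusted p = 0.0826). Without high-fat array 2 both passed the threshold (adjusted p = 0.00629 and 0.0067). Cyp2b9, a near copy of Cyp2b13 in sequence, was chosen for mention after its values were seen, as the gene of largest difference. It lay at 7.92, 9.33 and 10.08 against 11.66, 11.48 and 12.01 (difference 2.61, SE 1.30, adjusted p = 0.756). Probe sets of near-identical genes such as these, or Cyp4a12a and Cyp4a12b, Orm2 and Orm3, Gstm2 and Gstm3, may share signal, which these values cannot separate.

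Of 18 measured female-biased genes, 3 were higher and 1 lower at an unadjusted p under 0.05, with a median of 0.09. Of 17 male-biased genes, none was higher and 6 were lower, with a median of −0.26. Cyp4a12b lay at 10.12, 10.49 and 9.71 against 8.94, 9.26 and 8.52 (difference −1.20, SE 0.23, adjusted p = 0.166). Hsd3b5, a steroid dehydrogenase, lay at 8.98, 8.94 and 8.71 against 7.69, 7.78 and 8.34 (difference −0.94). Both had no overlap between groups. The male-biased list leaned on low-fat array 1, the highest of the 6, and its median was −0.07 without it. It also had 3 lower genes in place of 6 without high-fat array 1. Moxd1, the male-biased gene of largest difference (−2.01), had overlapping groups and an adjusted p of 0.832.

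**Figure D3:**
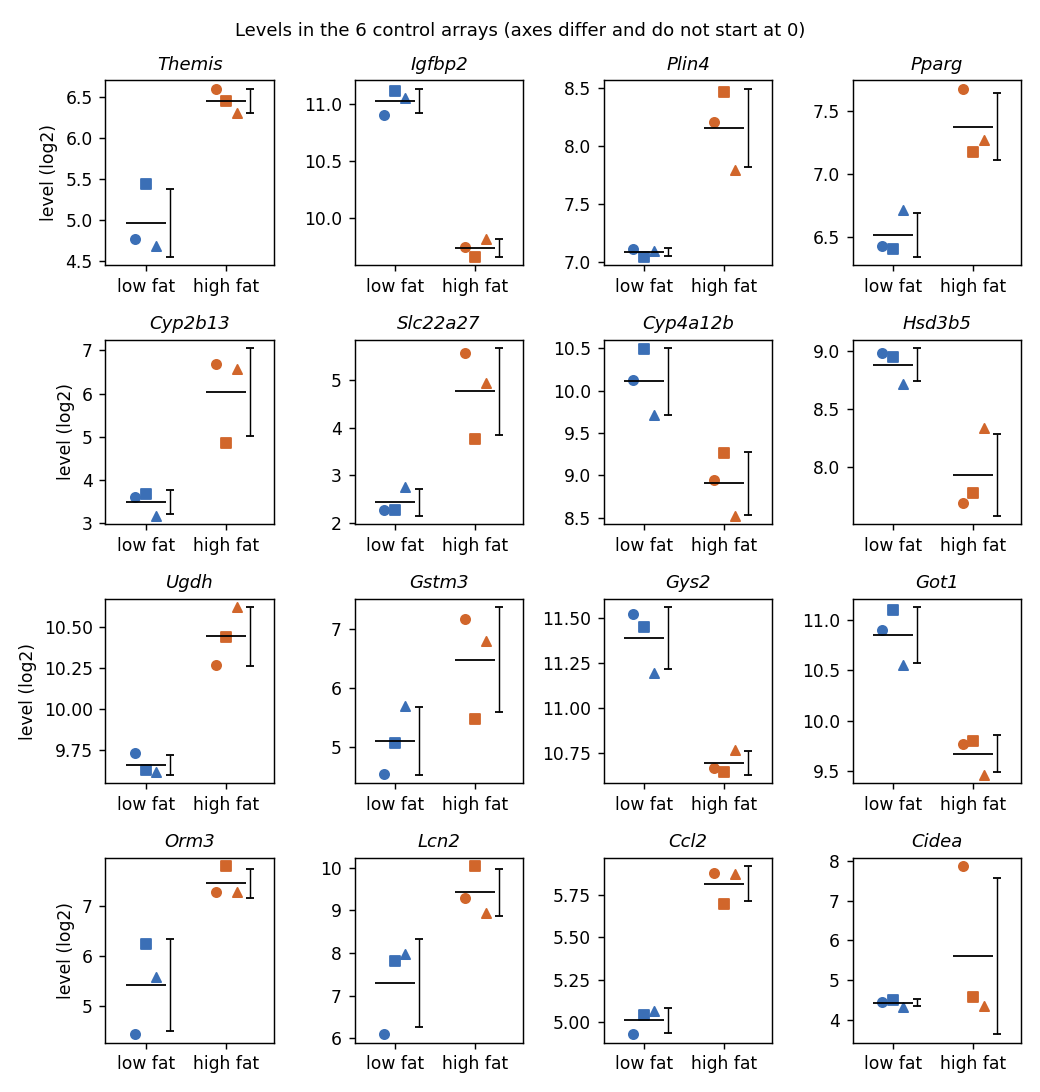
Log2 levels of 16 genes in the 3 low-fat (circle, square and triangle for replicates 1, 2 and 3) and 3 high-fat control arrays, with the group mean as a line and the SD as a bar. The groups overlap in Gstm3 and Cidea and in no other panel, and in Cidea high-fat array 1 alone lies high.

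Genes of the oxidative stress response were higher in several members. Ugdh, which makes UDP-glucuronate for conjugation, lay at 9.73, 9.63 and 9.61 against 10.27, 10.44 and 10.62 (difference 0.79, SE 0.13, adjusted p = 0.0826). Of 21 measured targets of NRF2, the transcription factor of that response, 10 had an unadjusted p under 0.05, all higher, and the median was 0.25. They included the glutathione transferases Gstm3 (1.37) and Gstm2 (0.77), the aldehyde oxidase Aox1 (0.61), the heme oxygenase Hmox1 (0.66), the quinone reductase Nqo1 (0.42), and Pgd (0.48) and Taldo1 (0.42) of the pentose phosphate route. Gstm3 lay at 4.54, 5.07 and 5.69 against 7.16, 5.47 and 6.79, so that its groups overlapped. Without high-fat array 1 the count was 6 of 21 and the median 0.30. Of 16 endoplasmic reticulum stress genes 1 was higher (Dnajb9, 0.39), 4 were without high-fat array 1, and the median was 0.28, and none of 10 heat shock chaperones reached an unadjusted p of 0.05 (2 were higher without that array). Of 19 xenobiotic receptors and cytochromes, 1 was higher and 3 lower, among the latter Cyp1a2 (−0.39).

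Acute phase genes, which hepatocytes raise in inflammation, were among those of large difference but also of large spread. Orm3 lay at 4.44, 6.25 and 5.58 against 7.28, 7.80 and 7.28 (difference 2.03, SE 0.42, adjusted p = 0.231). Lcn2, a secreted iron scavenger, lay at 6.09, 7.82 and 7.97 against 9.30, 10.03 and 8.93 (difference 2.13, SE 0.59, adjusted p = 0.468). Saa2, a serum amyloid protein, lay at 7.12, 8.14 and 8.56 against 9.69, 10.72 and 9.75 (difference 2.11, SE 0.93, adjusted p = 0.72). Its SD was 0.75 and 0.58 in the low-fat and high-fat controls. It was 2.02 and 1.89 in the low-fat and high-fat extract-fed groups, which also enter the SE. In the controls, Orm3, Lcn2 and Saa2 had all high-fat arrays above the low-fat arrays, with high-fat array 2 the highest and low-fat array 1 the lowest. Of 24 measured acute phase genes, 9 had an unadjusted p under 0.05, all higher, in 11 the groups were apart with the high-fat arrays above, and 23 had a difference above 0. The median was 0.34, and 0.17 without high-fat array 2. Without high-fat array 1, 9 of the 24 were higher and 1 lower at an unadjusted p under 0.05.

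Of 29 measured inflammatory cytokines and signalling genes, 8 were higher at an unadjusted p under 0.05, none lower, and the median was 0.33. Ccl2, which draws monocytes, lay at 4.93, 5.04 and 5.06 against 5.88, 5.70 and 5.87, with no overlap (difference 0.81, SE 0.20, adjusted p = 0.387). The neutrophil attractant Cxcl1 differed by 1.18, the interferon-induced Cxcl10 by 0.89, and the receptors Tlr4 and Tlr2 by 0.67 and 0.53. Without high-fat array 1 the count was 6 and the median 0.22. Of 22 interferon response genes 2 were higher, with a median of 0.11.

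Markers of other liver cells also differed in part, and their share in the results above was not tested. Of 16 macrophage and Kupffer cell markers 1 was higher at an unadjusted p under 0.05 (Trem2, 0.50), and 0 were without high-fat array 1, and their mean level spread from 6.73 to 7.21 in the low-fat arrays and from 6.57 to 7.71 in the high-fat arrays. Their median difference of 0.30 was 0.03 without high-fat array 1 and 0.62 without high-fat array 3. Of 19 stellate cell and matrix genes 6 were higher and 1 lower, with a median of 0.35. Col1a1, the main fibrillar collagen chain, lay at 6.39, 6.60 and 6.53 against 8.56, 6.51 and 7.26, and Col3a1 at 6.07, 6.13 and 6.70 against 8.16, 6.54 and 7.41. Their groups overlapped, and high-fat array 1 was the highest in both. Without it 1 of the 19 was higher, 0 were lower and the median was 0.20. The differences of Col1a1 and Col3a1 were 0.38 and 0.67 without it, against 0.94 and 1.07 with it. Of 10 cholangiocyte markers 2 were higher at an unadjusted p under 0.05 (Pkhd1, 0.70, and Krt7, 0.35), and 2 were without high-fat array 1. In the list 8 differences were above 0 and 2 below, the lowest at −1.16. The mean level of these markers was highest in high-fat array 1. Bicc1, 1 of them, lay at 7.58 in it and between 6.06 and 6.24 in the other 5. The median of 0.32 was 0.10 without that array. Of 11 sinusoidal endothelial markers 2 were higher, and none without that array. No value of the series was at 0 (the lowest was 0.71), and no detection call was used for these markers.

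The lists of liver zonation, B cells, neutrophils and pancreatic cells had medians between −0.07 and 0.12, and clock genes a median of 0.03 with 1 of 20 higher and 1 lower (0 higher without high-fat array 1). Of 7 erythroid markers 1 was measured, with a difference of −0.07.

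**Figure D4:**
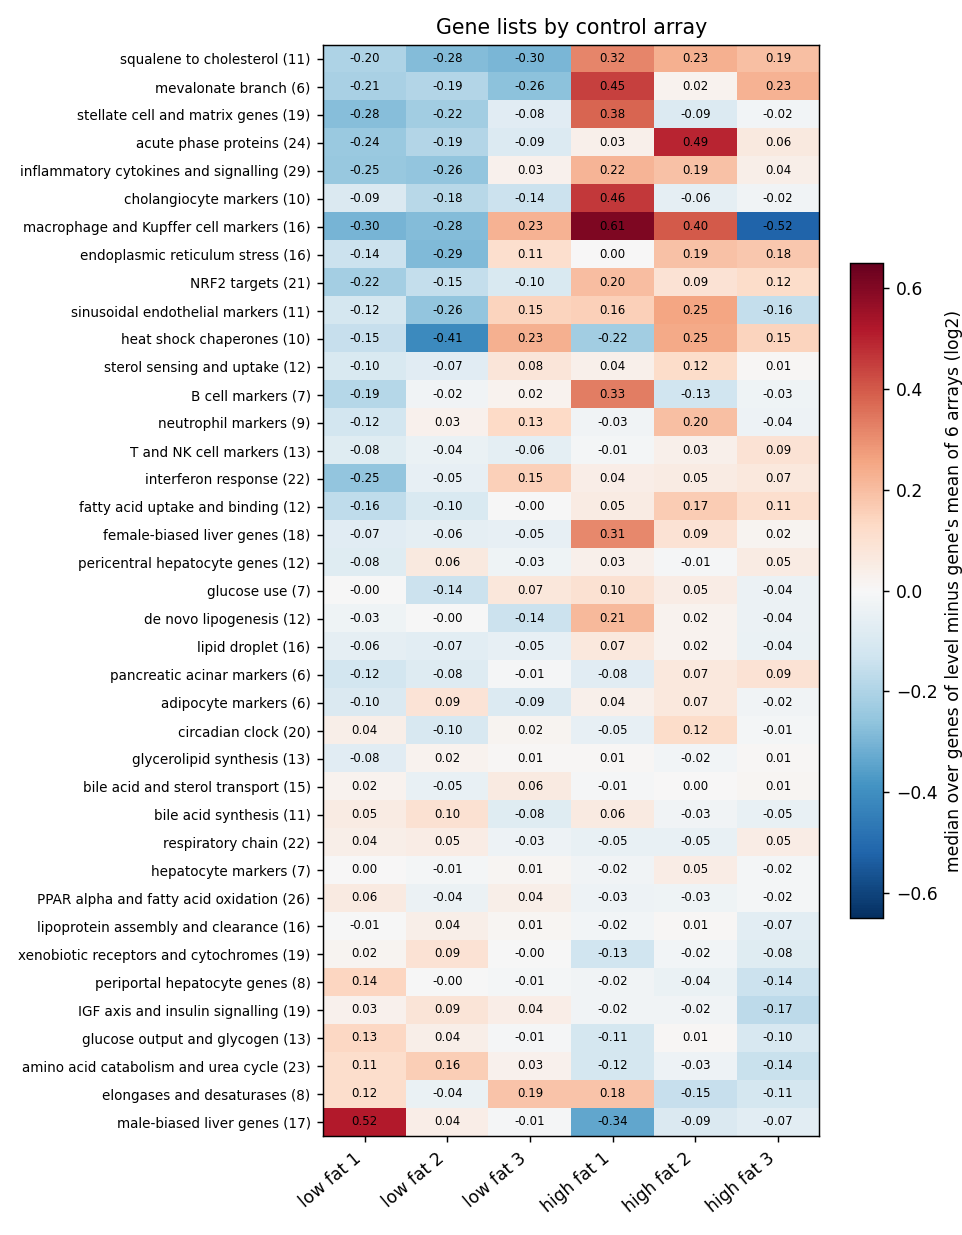
Each cell gives, for 1 gene list (rows, with the number of measured genes) and 1 control array (columns), the median over the genes of the log2 level minus the gene's mean over the 6 arrays. Both cholesterol lists are above 0 in all high-fat arrays and below 0 in all low-fat arrays, whereas the macrophage list reads 0.61, 0.40 and −0.52 in the high-fat arrays.

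Several genes of low p or large difference belong to none of these groups. Ccnb2, a mitotic cyclin, lay at 5.08, 5.03 and 5.28 against 5.81, 5.93 and 5.84 (difference 0.73, adjusted p = 0.0826). Mpzl1, a cell surface glycoprotein, differed by 0.76 (adjusted p = 0.103). Lower genes were Brap, which binds BRCA1 (−0.62, adjusted p = 0.172), and Csta1 of the stefin family of protease inhibitors (−1.14, adjusted p = 0.166). Cgref1 (−1.07, adjusted p = 0.172) and Smad9, a signal carrier of bone morphogenetic proteins (−1.25, adjusted p = 0.491), were lower too. Csta1 had means of 3.09 in the low-fat and 1.95 in the high-fat arrays, below the median of 4.72 over all values of the series. All 6 were taken from genes whose groups did not overlap, so the lack of overlap was a condition of their choice.

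In the 6 arrays from extract-fed mice, which shared no array with the control comparison, 0 genes passed an adjusted p of 0.05 between the diets by limma, and 1012 (4.56%) had an unadjusted p under 0.05 (2.39% higher and 2.18% lower). The test of whether the diet difference depended on the extract also called 0 genes, with 1130 (5.09%) at an unadjusted p under 0.05 (2.43% with the larger difference in the controls and 2.67% with the larger in extract-fed mice, signs kept). For the called genes the diet differences in extract-fed mice were 0.47 (SE 0.12) for Cyp51, 0.54 (SE 0.21) for Sqle, 0.53 (SE 0.20) for Themis and −0.21 (SE 0.15) for Igfbp2. Each had the direction seen in the controls and a smaller size, but the genes were picked for a large difference in the controls. The difference between both diet differences was 0.83 for Cyp51 (SE 0.16), 1.34 for Sqle (SE 0.30), 0.96 for Themis (SE 0.28) and −1.09 for Igfbp2 (SE 0.21), with an adjusted p of 0.664 for Cyp51, Sqle and Igfbp2 and of 0.921 for Themis. Among extract-fed mice, Sqle levels were 6.43, 6.40 and 5.84 in the low-fat group and 7.13, 6.42 and 6.74 in the high-fat group, with a slight overlap. Igfbp2 levels were 10.18, 10.15 and 10.73 against 10.13, 10.16 and 10.15.

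Of the 547 genes that were higher in the control comparison at an unadjusted p under 0.05 with groups apart, 294 (53.7%) also had a diet difference above 0 in extract-fed mice, against 50.5% of all genes. Their median differences were 0.43 without and 0.01 with extract. Of the 569 lower genes, 323 (56.8%) were below 0 with extract, against 49.5% of all genes, with medians of −0.40 and −0.02. Both sets were picked for their difference in the controls, so smaller medians in other arrays would be seen without any effect of the extract. Hmgcs1 (0.72), Got1 (−0.61) and Fads2 (−0.42) were among the genes of these sets that kept the sign. G6pc (−0.68) kept its sign too, but its control groups overlapped, so it was in neither set. The sterol genes Fdps (−0.19), Lss (−0.16) and Dhcr7 (−0.14) did not, while Msmo1 (0.54) and Nsdhl (0.07) did. Median differences with extract were 0.07 in the mevalonate branch and 0.07 from squalene to cholesterol. Fasn had a diet difference of −0.74 (SE 0.21) in extract-fed mice against 0.78 in the controls, a gap of 1.53 (SE 0.29) with an adjusted p of 0.664. Its levels in those mice were 9.37, 9.74 and 9.18 in the low-fat group and 8.65, 8.79 and 8.62 in the high-fat group.

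**Figure D5:**
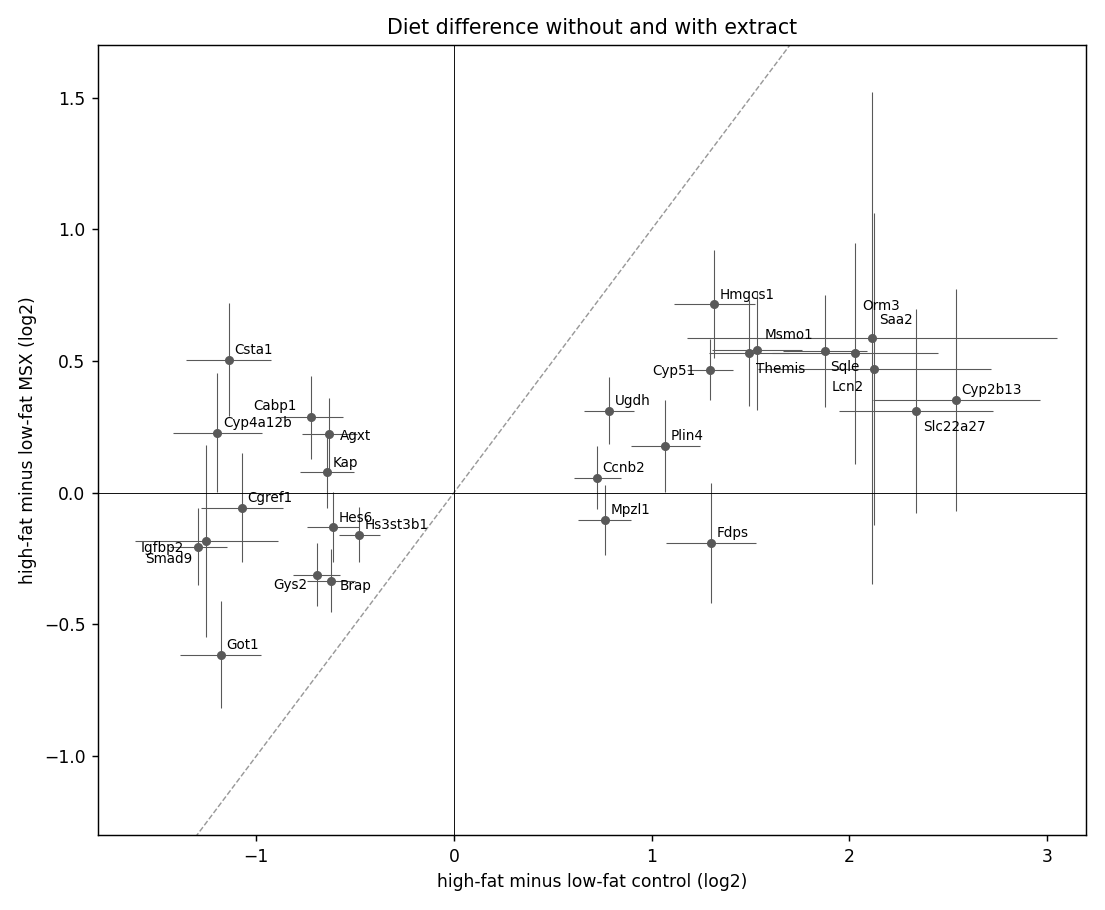
The diet difference without extract (horizontal axis) is plotted against that with extract (vertical axis), both in log2 with bars of 1 SE, for the genes of lowest p or largest difference in the control comparison. The dashed line marks equal differences. All genes lie nearer to 0 on the vertical axis than on the horizontal one, but they were picked for their values on the latter.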

How the data were processed

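Liver RNA of 12 mice was measured on Affymetrix arrays, 1 per mouse sample. The authors deposited log2 values for 41345 probe sets, and the submitters' processing notes name the Transcriptome Analysis Console. No version, summarization or normalization method is stated in the labels or headers, and nothing was added to the deposited scale. Such steps pull arrays to a common scale, so that a shift common to all genes would not be seen. No detection call or batch was used, and the number of arrays limits the precision.

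Probe sets were named from the platform annotation (23521 with 1 symbol, 1814 with several, the rest not listed), and the probe set of highest mean represented each of 22180 genes. A model of 4 group means was fitted to all 12 arrays with limma 3.58.1 in R 4.3.3 (lmFit, eBayes with default settings, two-sided), so that the groups shared 1 estimate of the spread. A gene was called at a Benjamini-Hochberg adjusted p under 0.05 over all genes. Fold changes are powers of 2 of log2 differences, and SE is the moderated standard error. With 3 arrays in each group, 0.1 is the smallest p of an exact permutation test. The procedure was tested on simulated data.

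The text names, from those a rule took, the called genes, the 12 genes of lowest p and the 6 of largest difference per direction whose groups did not overlap, the 4 genes of lowest p in each of 40 gene lists, and a panel of 38 genes (32 measured). A few other members of the lists are named as well. Of 610 listed genes 550 were measured. The members, lists and rule were chosen with earlier results of these data known. Alternatives were the 6 control arrays alone, a replicate block, quantile normalization, median centring, a filter on dim genes, the mean of probe sets, another variance model and each array left out. The counts without high-fat control array 1 and the fits without an extract-fed array were added after seeing the data. Promoter sequences are RefSeq's.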

Additional observations from a re-analysis of the deposited data

How the results depend on the processing

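The count of 4 genes called between the diets in control mice was 10 when 12794 genes at or above the median level were tested, and 11 with a trended, robust variance model. The added genes were Ccnb2, Gys2, Hmgcs1, Msmo1, Plin4 and Ugdh under the filter, and Aldh1a7, Brap, Gys2, Hmgcs1, Msmo1, Plin4 and Ugdh under the variance model. The count was 4 in the 6 control arrays alone (with Fdps called and Themis not), 4 under quantile normalization and under the mean of probe sets, and 5 under median centring. Leaving out each array in turn gave between 1 (low-fat control array 3) and 7 genes (low-fat MSX array 2 or 3). Fewer genes or arrays enter some of these fits, and otherwise the cause was not tested.

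The replicate numbers of the titles were not taken as pairs, since deviations of same-numbered arrays correlated between −0.126 and 0.112. They correlated at −0.018, −0.031 and −0.049 between both control groups, and at 0.106, 0.080 and 0.112 between the high-fat control and high-fat MSX groups, where each differently numbered pair was below 0. With the replicate number as a block 5 genes were called (Msmo1 was added). The test of dependence on the extract called 0 genes under each other setting and between 0 and 1 with an array left out. Between the diets in control mice, Cyp2c39 was added to the called genes without high-fat MSX array 1.

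With an array left out, the difference ran from −0.22 (without high-fat control array 1) to 0.88 for Cidec, from −0.68 to 0.46 for Cyp7a1, from −0.17 to 0.11 for Ebp, from −0.14 to 0.13 for Cd3e, from −0.44 to 0.00314 for Srebf1, from −0.0722 to 0.16 for Acaca and from −0.00796 to 0.0596 for Ppara. None of these genes was called.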
